A study of Rattus norvegicus with 6 samples.

Results

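The myocardium of an infarcted rat heart injected with buffer (PBS) was set against that of a sham-operated heart, as 1 array each, which makes 2 of the 6 arrays of the series. Both samples, labelled simply as myocardial tissue, came from Sprague Dawley rats aged 13 weeks, and both were taken at 21 days, a time that the labels count from a sham operation even for infarcted hearts. Printed beside them are the 2 other myocardial arrays, from infarcted hearts of the same strain and age at the same day that received adipose-derived stem cells carrying the radioactive tracer 124I-HIB. These are called treated replicates 1 and 3, as numbered in the labels. The labels give neither the infarct's method, nor its size, nor which part of the heart was sampled. The series set out to follow labelled stem cells in infarcted myocardium, and the PBS infarct is its infarct without cells. The arrays were single-colour Agilent arrays, whose spots give the brightness of 1 labelled RNA. A signal is given here relative to the 75th percentile of its own array, so a relative signal of 1 is as bright as that percentile. A difference is log2 of PBS infarct over sham, and treated values are given as read, also where they were not well above background. Relative signals of different genes come from different probes and say nothing about which gene is more abundant.

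A myocardial infarct replaces dead muscle by a scar. Fibroblasts turn into matrix-secreting, contractile myofibroblasts, immune cells enter and leave, and the surviving muscle is remodelled. Matricellular proteins, secreted Wnt and BMP regulators, chemokines and sympathetic nerve sprouting are all known parts of that repair, as is a partial return to fetal gene use in the muscle.

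With 1 array on each side there is no replicate check and no test, so every difference below describes these 2 samples. A feature was counted where the arrays were 2-fold apart and the probe was well above background on both. Of 16958 features measured on both arrays, 624 (3.68%) were 2-fold apart. Of these, 380 (2.24%) were higher and 244 (1.44%) lower in the PBS infarct, so that 60.9% were higher, or 47.9% when arrays are scaled on their medians instead. The only samples of like condition, the treated pair, were 2-fold apart in 239 of 17290 features (1.38%). Of the 371 higher features that were measured on all 4 arrays, 365 differed from sham by more than the gap within the treated pair, as did 224 of 227 lower ones. This checks little, since they were picked as 2-fold apart and the treated pair rarely is. The treated infarcts and the PBS infarct are each set against the same sham array, so a value that is high or low in sham moves all of them together. Fewer cells of a type and less RNA per cell cannot be told apart in tissue RNA.

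Of the 16958 features, 7540 were above 0. The median difference over all features was -0.05, and it depended on brightness. With features split into 10 bins of equal size by brightness, it was 0.04 in the second-dimmest bin and -0.23 in the brightest, whereas that of the treated pair stayed between 0.03 and 0.06 in all bins. The 7 spiked-in control RNAs, added in known amounts during labelling, differed by -0.62 on average (SD 0.05, range -0.66 to -0.52). When arrays are scaled on them, every difference rises by that amount, the median of all features becomes 0.57, and 2084 features are higher against 40 lower. "Higher" and "lower" below are therefore relative to the other features of the same array.

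**Figure D1:**
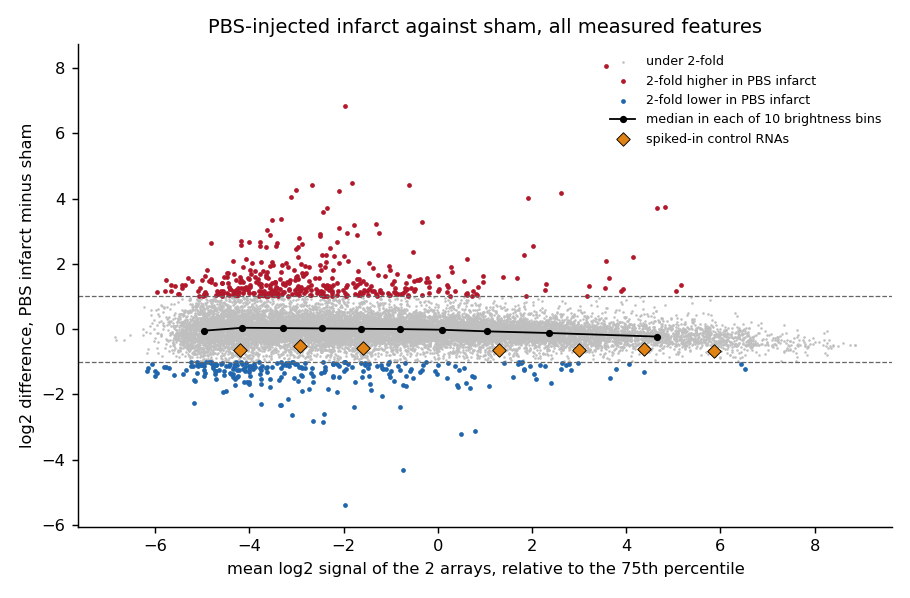
Log2 difference between PBS infarct and sham (vertical axis) against the mean log2 signal of the 2 arrays (horizontal axis), 1 point for each of 16958 features, with 380 higher in red, 244 lower in blue and dashed lines at 2-fold. The black line joins the medians of 10 bins of brightness, from -0.05 at the dim end to -0.23 at the bright end, and the orange diamonds are the 7 spiked-in RNAs, all between -0.66 and -0.52.

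The tissue label was checked against muscle markers. Myl2, the light chain of ventricular muscle, gave relative signals of 184 in sham, 143 in the PBS infarct, and 159 and 162 in the treated pair, so ventricular muscle RNA was present in every sample. Over 16 measured ventricular genes the median difference was -0.46, against -0.07 after brightness-dependent (loess) normalization and 0.15 with scaling on the spiked-in RNAs, where the median of all features is 0.57. Among named genes measured on both arrays, 2 atrial genes, Myl7 and Mybphl, had the highest differences, at 8.07 and 6.84. Myl7, the atrial light chain, read 0.721 in sham, 193 in the PBS infarct and 4.04 and 1.78 in the treated pair. Sln, the atrial calcium pump inhibitor sarcolipin, was well above background in the PBS infarct alone and was at least 2730-fold higher than the signal that stands for sham. Of 22 atrial genes on the array, 18 were measured on both, 3 in the PBS infarct alone and 1 was not well above background on either array. Of the 18, 15 were above 0 and 7 were 2-fold higher (38.9%, where 2.24% of all features were). The summed relative signal of the 18 was 234 in sham, 510 in the PBS infarct, and 240 and 194 in the treated pair. Not all atrial genes were high, since Myl4 (-0.23), Nppb (-0.50) and Kcna5 (-0.65) were below 0. The part that atrial tissue in the sample plays in any group described below was not tested.

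Beyond the muscle genes, several groups had a share of 2-fold higher genes above that of all features (2.24%). They included matricellular proteins, tendon-type matrix, regulators of Wnt and BMP signalling and nerve-associated genes. Chemokines with their receptors (11.1%) and acute-phase and secreted defence proteins (26.9%) were also among them. Genes of red blood cells, of cell division, of the interferon response and of B cells had medians below 0. Of 72 gene lists, holding 2096 genes on the array and 1519 measured on both, the medians ran from -1.87 for a list with 1 measured gene to 1.56 for chondrocyte and tendon genes. A gene can stand on more than 1 list, so the lists are not separate readings.

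**Figure D2:**
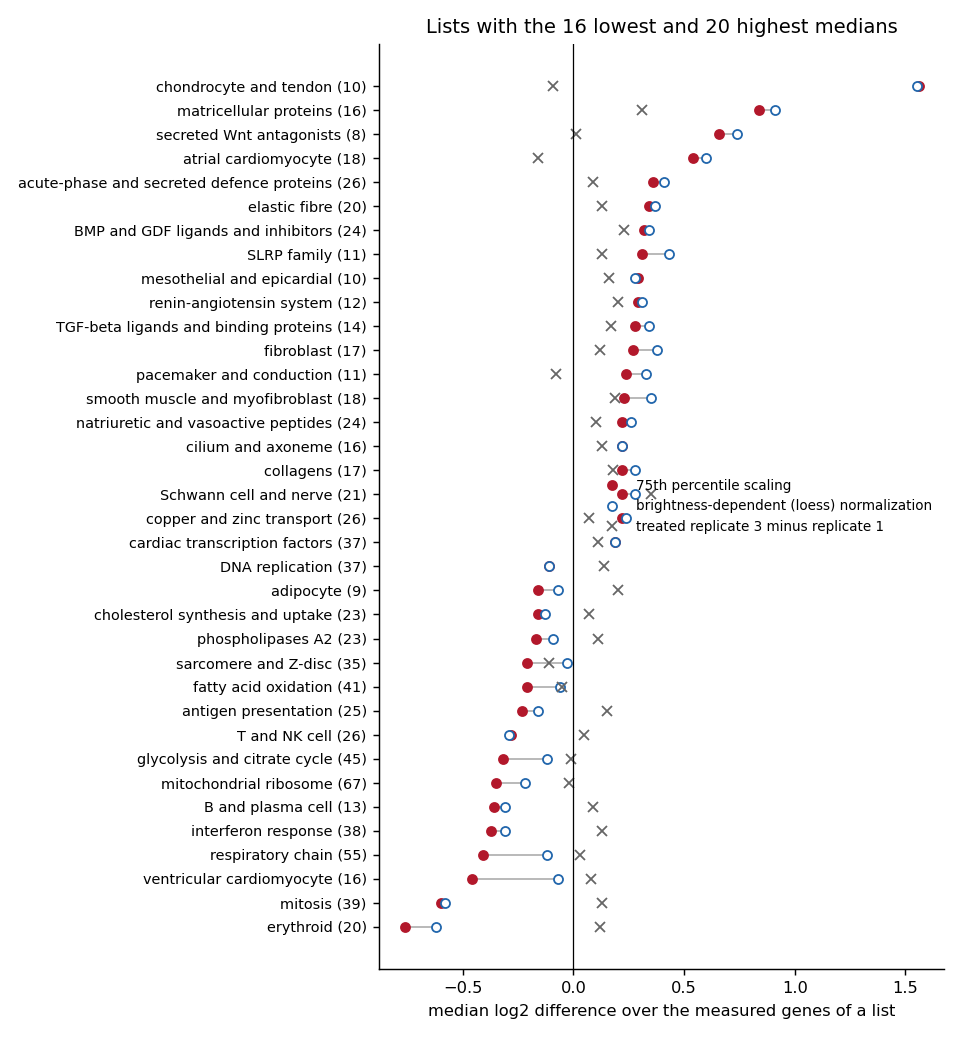
Median log2 difference between PBS infarct and sham for the lists with at least 8 measured genes whose medians were the 16 lowest and 20 highest (number of measured genes in brackets), scaled on the 75th percentile (red) or by loess (open blue), with treated replicate 3 minus replicate 1 as crosses. Chondrocyte and tendon genes lie at 1.56 and erythroid genes at -0.76, and the respiratory chain moves from -0.41 to -0.12 with loess.

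Matricellular proteins are secreted into the matrix to signal to cells rather than to bear load. Of 27 on the array, 16 were measured on both arrays and 8 of those were 2-fold higher, where 2.24% of all features were, with a median of 0.84. None was 2-fold lower. Ccn5, a CCN protein that lacks the C-terminal domain of its relatives, read 0.0536 in sham, 0.645 in the PBS infarct, and 0.0653 and 0.0818 in the treated pair, a difference of 3.59. Ccn3 read 0.116 in sham, 0.553 in the PBS infarct, and 0.0682 and 0.1 in the treated pair. Both genes were thus high in the PBS infarct and close to sham in the treated infarcts. The other CCN members moved less: Ccn2, the growth factor CTGF, differed by 1.30 and Ccn1, or CYR61, by 1.1. Ccn4 was measured in the PBS infarct alone and was at least 3.62-fold higher. Thbs4, a thrombospondin of tendon and stressed heart, read 0.0638 in sham, 0.485 in the PBS infarct, and 0.255 and 0.129 in the treated pair, so here the treated infarcts lay in between. Postn, the myofibroblast product periostin, differed by 1.55, and Sparc, a collagen chaperone of the same list, by -0.08.

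Collagens themselves did not reach 2-fold. Of 17 measured, 15 were above 0, with a median of 0.22, and Col1a1 differed by 0.09 and Col1a2 by 0.38. Of 11 measured small leucine-rich proteoglycans, which organise collagen, 3 were 2-fold higher (27.3%, where 2.24% of all features were). Their median was 0.31. Fmod, which encodes fibromodulin, a member that binds collagen fibrils, read 0.254 in sham, 2.46 in the PBS infarct, and 0.301 and 0.545 in the treated pair. Its relatives Chad (2.68) and Aspn (1.66) were 2-fold higher as well, but Dcn (0.01) and Ogn (-0.02), decorin and osteoglycin, were level. Epyc, a cartilage proteoglycan of the same family, was measured in the PBS infarct alone and was at least 18.7-fold higher.

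Tendon and cartilage cells lay down matrix under load. On the list of chondrocyte and tendon genes, 10 of 18 on the array were measured on both, 9 were above 0 and 6 were 2-fold higher. Of these 6, Fmod and Chad were already counted among the proteoglycans, and Thbs4 and Comp among the matricellular proteins. Comp, an oligomeric matrix protein of cartilage and tendon, read 0.0435 in sham, 0.166 in the PBS infarct, and 0.0473 and 0.0538 in the treated pair. Prg4, the joint lubricant lubricin, differed by 1.73 and Cytl1, a cytokine-like product of cartilage precursors, by 1.38. The defining regulators and products of these cells were not high: Scx, the tendon transcription factor, differed by -0.54, Col2a1 by 0.30, and Acan, Tnmd and Cnmd were not well above background on either array. Elastic fibre genes were a milder group, with 16 of 20 above 0 and a median of 0.34. The latent TGF-beta binding protein Ltbp2 (2.28) and the fibrillin Fbn2 (1.02) were its members past 2-fold, and Eln, the elastin gene, lay just under that line at 0.995.

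Contractile smooth muscle genes mark myofibroblasts. Acta2, smooth muscle actin, read 0.248 in sham, 0.952 in the PBS infarct, and 0.391 and 0.658 in the treated pair. Actg2 differed by 1.27 and both of its probes agreed in size (1.24 and 1.27), while its treated replicates read 0.241 and 0.705, a gap of 1.55 that is larger than the difference from sham. Itga8, an integrin chain of mesenchymal cells, differed by 1.90. Of the 18 measured genes of the list, 11 were above 0 and the median was 0.23. Csrp2, a smooth muscle LIM protein, read 0.729, 3.23, 1.59 and 1.96 in sham, the PBS infarct and treated replicates 1 and 3. Among fibroblast genes, Gpc3, a heparan sulfate proteoglycan, stood out at 2.56, and the mesenchymal homeobox gene Meox1 differed by 1.45, where Pdgfra (-0.00) and Dcn (0.01), present in resting fibroblasts, were level.

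Wnt proteins signal through Frizzled receptors, and secreted antagonists hold them back. Of 14 antagonists on the array, 8 were measured on both and 7 were above 0, with a median of 0.66. Of the 8, 3 were 2-fold higher (37.5%, where 2.24% of all features were). Sfrp2, a secreted Frizzled-related protein, read 0.0544 in sham, 0.707 in the PBS infarct, and 0.184 and 0.173 in the treated pair. Sostdc1, which binds both Wnt co-receptors and BMPs, read 0.0865, 0.486, 0.0582 and 0.164 in the same order. Sost, the bone antagonist sclerostin, differed by 1.07, and this call was lost with another background correction, under which it was -0.03. Among ligands and receptors, Wnt2b read 0.0142 in sham, 0.0880 in the PBS infarct, and 0.0207 and 0.0251 in the treated pair, and Nkd2, an intracellular brake on the pathway, differed by 1.18. Further members were measured in the PBS infarct alone. They number 9 of 36 on the array, with none measured in sham alone. Of all 26785 features, 1094 were measured in the PBS infarct alone and 385 in sham alone. The 9 include Wnt9b, at least 11.3-fold higher, Nkd1, at least 9.23-fold, and Wnt16, at least 4.49-fold. Rspo3 was at least 3.58-fold and the pathway's target Axin2 at least 2.12-fold higher. Lef1, a transcription factor of the pathway, had a bound of only 1.08-fold. Fzd4, a receptor of endothelial cells, was the lowest measured member at -0.74.

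BMPs, activins and TGF-betas are ligands of 1 superfamily. Inhba, the activin A subunit, read 0.387 in sham, 1.02 in the PBS infarct, and 0.376 and 0.484 in the treated pair. Its inhibitor Fst, follistatin, was higher along with it, at 0.116 in sham, 0.296 in the PBS infarct, and 0.0702 and 0.116 in the treated pair. Bmp2 differed by 1.28 and Bmp7 by 1.37. These 4 were the 2-fold members of 24 measured (16.7%, where 2.24% of all features were higher). Of the 24, 15 were above 0, and the median was 0.32. Bmp10, a ligand made by atrial muscle, was measured in the PBS infarct alone and was at least 32.2-fold higher. The intracellular responders Id1 (0.33), Id2 (-0.03) and Id3 (-0.08) were under 2-fold. Of the TGF-betas, Tgfb2 read 0.0644 in sham, 0.228 in the PBS infarct, and 0.156 and 0.123 in the treated pair, but Tgfb1 (-0.09) and Tgfb3 (0.11) were level. Il1a, the inflammatory cytokine interleukin 1 alpha, was measured in the PBS infarct alone and was at least 17.5-fold higher, while none of the 35 measured genes on the list of interleukins and receptors was 2-fold apart. That list does not hold Il17re, a receptor chain described with the epithelial genes below, which was 2-fold higher.

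Peripheral nerve genes made up a further higher group. Of 36 on the array, 21 were measured on both. Of those, 7 were 2-fold higher (33.3%, where 2.24% of all features were) and none lower. Another 8 were measured in the PBS infarct alone and none in sham alone, where all 26785 features had 1094 and 385. The growth cone gene Gap43 read 0.0478 in sham, 0.143 in the PBS infarct, and 0.0592 and 0.0820 in the treated pair, so all 3 infarcts were above sham. Mbp, a myelin protein, read 0.185 in sham and 0.535 in the PBS infarct, but 0.0954 and 0.292 in the treated pair, whose gap of 1.61 is wider than the difference of 1.53. Ngfr, the low-affinity nerve growth factor receptor, differed by 1.41, Uchl1, a neuronal deubiquitinase, by 1.72, and Sox10, the master regulator of Schwann cells, by 1.14. S100b, a glial calcium-binding protein, was at least 8.08-fold higher. Outside this list, Lgi4, a Schwann cell secreted protein, differed by 1.69. Artn, the neurotrophic factor artemin, and Gfra3, its receptor, differed by 1.28 and 1.30. They stand on a list of neurotrophins and guidance cues, where 25 of 41 measured genes were below 0 and the median was -0.08. On it 3 genes were 2-fold higher (7.32%) and 1, Ret, was lower at -1.10. Of the 21 measured nerve genes, 6 were below 0. They include Th (-0.75) and Dbh (-0.20), enzymes of noradrenaline synthesis in sympathetic axons, and Mag (-0.50), Pou3f1 (-0.31), Prx (-0.23) and Cnp (-0.13). Dhh, a Schwann cell hedgehog, differed by 1.62 with its brightest probe and by -0.79 with its other. The nerve list's median was 0.22 over the measured genes and 0.63 with one-array genes at their bounds. Its summed relative signal was 7.90 in sham, 10.7 in the PBS infarct, and 7.89 and 12 in the treated pair.

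**Figure D3:**
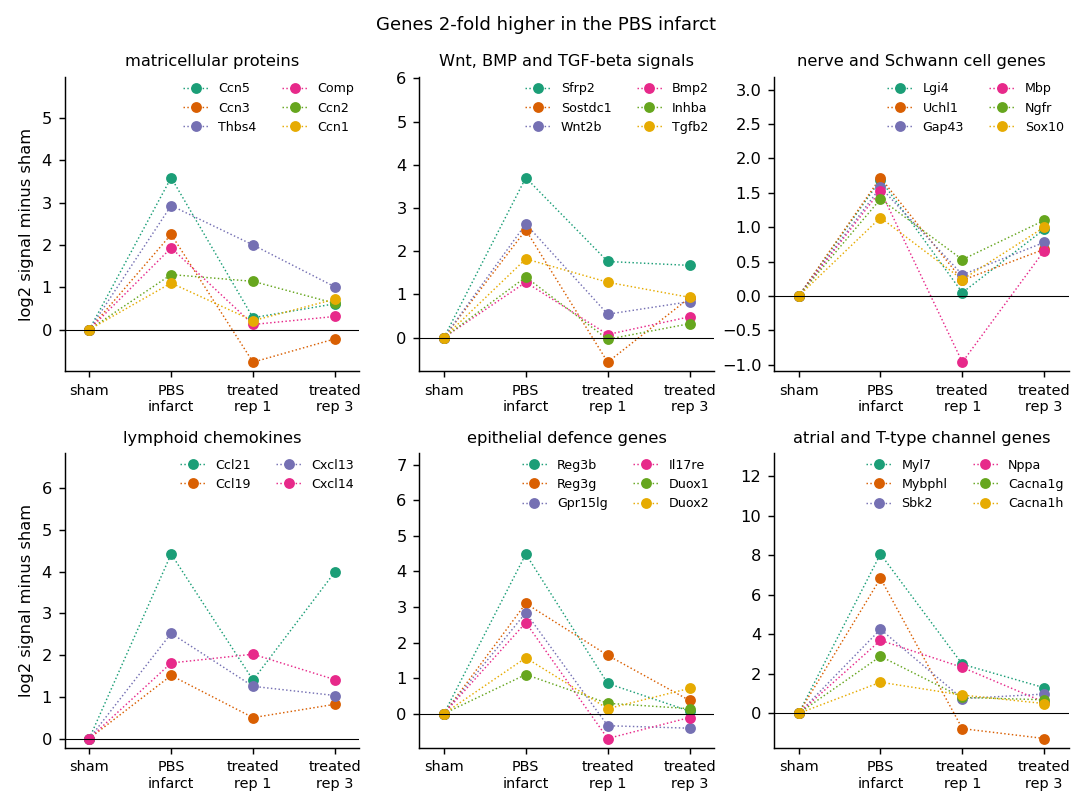
Log2 signal of each gene minus its signal in sham (vertical axis, a separate range in each panel) on the 4 myocardial arrays, 1 array per point, for 6 groups of genes that were 2-fold higher in the PBS infarct. Most genes peak in the PBS infarct and lie nearer to sham in the treated pair; Cxcl14, at 1.81 in the PBS infarct, and Ccl21 in treated replicate 3 are as high in a treated infarct or nearly so.

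Of 36 measured chemokines and receptors, 4 were 2-fold higher and 2 lower (11.1% and 5.56%, where 2.24% and 1.44% of all features were). Ccl21, which guides lymphocytes and dendritic cells along lymphatic vessels, read 0.141 in sham and 3.03 in the PBS infarct. In the treated pair it read 0.372 and 2.24, a gap of 2.59, so 1 treated infarct was nearly as high. Its neighbour in the genome, Ccl19, which shares the receptor Ccr7, read 0.439 in sham, 1.25 in the PBS infarct, and 0.618 and 0.777 in the treated pair. Cxcl13, which draws B cells into follicles, read 0.0532, 0.306, 0.127 and 0.109 in the same order, and Cxcl14 was high in all 3 infarcts, at 0.929, 1.08 and 0.702 against 0.265 in sham. These were the 4 higher ones. The lower ones were Ccl1 (-1.09) and Cxcl11. Cxcl11, an interferon-induced chemokine, read 1.59 in sham, 0.605 in the PBS infarct, and 0.763 and 0.761 in the treated pair, and the other ligands of Cxcr3, Cxcl9 (-0.59) and Cxcl10 (-0.17), were under 2-fold. The chemokines that attract monocytes were under 2-fold as well, with Ccl7 at 0.74, Ccl12 at 0.38, Ccl2 at 0.04 and Ccl3 at -0.22. Beside Ccl21, markers of lymphatic vessels were mixed: Pdpn differed by 1.23 and Foxc2 by 1.61, Tbx1 was at least 8.49-fold higher, while Lyve1 (0.44), Flt4 (0.13) and the lymphatic master regulator Prox1 (-0.23) were under 2-fold.

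Of 13 measured genes of B cells, the cells that Cxcl13 attracts, 9 were below 0, as were most of all features. Of the 13, 3 were 2-fold lower and 1 higher, where 1.44% and 2.24% of all features were. Cd79b, part of the B cell receptor, read 0.0596 in sham, 0.0246 in the PBS infarct, and 0.0162 and 0.00552 in the treated pair, a difference of -1.28. Vpreb3 differed by -1.04 and Pou2af1, a B cell transcription co-activator, by -1.62, and Spib was measured in sham alone and was at least 3.73-fold lower. The B cell list's median was -0.36, or 0.26 with scaling on the spiked-in RNAs. Its members above 0 were Fcmr (0.23), Tnfrsf17 (0.21) and Xbp1 (0.02), all under 2-fold, and Btla, an inhibitory receptor of lymphocytes, which read 7.78 in sham, 104 in the PBS infarct, and 112 and 114 in the treated pair. All 3 infarcts agreed, but the other probe of Btla differed by -1.15 and was well above background in sham alone, so the gene's direction depends on the probe. Granzymes are the killing proteases of T and NK cells. Gzmc read 1.15 in sham, 0.342 in the PBS infarct, and 0.377 and 0.534 in the treated pair, and its neighbour Gzmb differed by -1.19, while Gzma (-0.75), Gzmk (-0.20) and Gzmm (0.26) were under 2-fold. T cell receptor chains Cd3d (-0.26) and Cd3g (-0.29) moved little, and the median of the T and NK list was -0.28, or 0.34 with spike scaling. The neighbouring genes S100a8 and S100a9, calgranulins of neutrophils, differed by -1.56 and -1.40. Of 19 neutrophil genes on the array, 5 were measured on both and 12 were not well above background on either. Camp (-0.23), Lcn2 (0.23) and Fpr1 (0.39) did not follow the calgranulins. Csf3r was measured in the PBS infarct alone and Retnlg in sham alone. Cd1d1, which presents lipids to natural killer T cells, had the lowest difference of all named genes given here. It read 5.14 in sham, 0.585 in the PBS infarct, and 0.775 and 1.81 in the treated pair.

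Some secreted defence proteins of epithelia and liver were higher as well. Reg3b, an antibacterial lectin also made by stressed heart muscle, read 0.0596 in sham, 1.34 in the PBS infarct, and 0.107 and 0.0624 in the treated pair. Reg3g, its relative, read 0.0794, 0.681, 0.247 and 0.103. Gpr15lg, an epithelial ligand of a lymphocyte homing receptor, read 0.0660, 0.474, 0.0521 and 0.0498, and its genomic neighbour Cdhr1, a cadherin of photoreceptors, read 0.0337, 0.722, 0.0956 and 0.0881. Both of these adjacent genes were highest in the PBS infarct, but the treated pair lay below sham for Gpr15lg and above it for Cdhr1. Wfdc21, a whey acidic protein family member, was at least 125-fold higher. Il17re, the receptor chain for epithelial interleukin 17C, read 0.0299, 0.177, 0.0184 and 0.0278, and the neighbouring peroxide-making oxidases Duox1 and Duox2, named after their values were seen, differed by 1.1 and 1.57. Complement was mixed. C4a read 0.935 in sham, 15.1 in the PBS infarct, and 1.28 and 1.62 in the treated pair, Cfb differed by 1.28, and C3 (0.32) and the C1q chains (0.48, 0.45 and -0.43 for C1qa, C1qb and C1qc) were under 2-fold. Of 26 measured acute-phase and defence genes, 7 were 2-fold higher (26.9%, where 2.24% of all features were) and none lower. The median was 0.36, and it became -0.04 with another background correction. Of the 26, 8 were below 0, among them Saa4 (-0.51), Wfdc2 (-0.26), Camp (-0.23) and Slpi (-0.13). Defb1, a defensin, was measured in sham alone.

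Several of the higher genes are products of mesothelium, the epithelium that covers the heart. Msln, mesothelin, was well above background in the PBS infarct alone, with relative signals of 1.92 there, 0.00867 in sham, and 0.0139 and 0.0153 in the treated pair, and was at least 203-fold higher. The keratins Krt19 and Krt18 were at least 15.2-fold and 11.1-fold higher. Nkain4 (1.90) and Aldh1a2 (1.23), which makes retinoic acid in the epicardium, were 2-fold higher, whereas Wt1 (-0.07) and Upk1b (-0.39) were not, and Krt7 and Krt5 were measured in sham alone. Of 22 genes of this list, 10 were measured on both, with summed relative signals of 1.54, 1.95, 1.59 and 1.80 in sham, the PBS infarct and treated replicates 1 and 3, and 5 in the PBS infarct alone. Fat cell genes also appeared on 1 array only: Adipoq, adiponectin, was at least 16.7-fold and Retn, resistin, at least 24.1-fold higher, and Rbp4, a retinol carrier secreted by fat and liver, at least 26.6-fold. The 9 adipocyte genes measured on both had a median of -0.16 and none was 2-fold apart, and Lep was not well above background on either array. The part of mesothelium or fat in the other groups was not tested.

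Hamp encodes hepcidin, the hormone that blocks iron export. It read 1.44 in sham, 25.7 in the PBS infarct, and 1.40 and 2.97 in the treated pair. Slc39a8, an importer of divalent metals (1.36), Cp, the ferroxidase ceruloplasmin (1.27), Cybrd1, a ferric reductase (1.16), and Steap2, another (1.09), were 2-fold higher as well. With Hamp these were the 5 higher ones of 29 measured iron genes (17.2%, where 2.24% of all features were). Hamp was already counted among the atrial and the defence genes, and Cp among the defence genes. Of the 29, 17 were above 0 and 12 below, with a median of 0.13. Hmox1, the heme-degrading enzyme, was the lowest at -0.82. The copper importer Slc31a1 read 0.0851 in sham, 0.0229 in the PBS infarct, and 0.0531 and 0.0755 in the treated pair.

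T-type calcium channels open at low voltage and are used by fetal, atrial and pacemaker muscle, and 2 of the 3 pore genes were 2-fold higher. Cacna1g read 0.113 in sham, 0.832 in the PBS infarct, and 0.198 and 0.182 in the treated pair, and a second probe, well above background in the PBS infarct alone, gave 2.78 beside 2.89. Cacna1h read 0.492, 1.48, 0.938 and 0.694, so the treated infarcts were intermediate. Cacna1i, the third such channel, was level at -0.08, as was Cacna1c, the L-type channel of working muscle, at -0.09. Hcn2, a pacemaker channel, was lower at -1.12, with 0.165 in sham, 0.0759 in the PBS infarct, and 0.144 and 0.148 in the treated pair. Spata20, next to Cacna1g in the genome, and Epn3, next to Spata20, likewise named after their values were seen, were also 2-fold higher (1.26 and 1.23), but the other probe of Epn3 differed by only 0.28. Of 42 measured potassium channels, 2 were 2-fold higher (4.76%, where 2.24% of all features were) and none lower, and the median was -0.01. Kcnd2, which carries transient outward current, differed by 1.29, though its treated pair read 0.208 and 0.548. Kcnn4, a calcium-activated channel of fibroblasts and lymphocytes, differed by 1.17.

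Iroquois homeobox genes pattern the ventricle wall, and they moved in opposite directions. Irx1 read 2.40 in sham, 0.739 in the PBS infarct, and 1.65 and 1.02 in the treated pair, and Irx2 read 1.04, 0.425, 0.617 and 0.456. Irx5, which sets the transmural gradient of repolarisation, differed by -0.86. Irx4, the ventricular identity gene, instead read 1.22 in sham, 2.55 in the PBS infarct, and 2.13 and 2.24 in the treated pair, so all 3 infarcts were above sham. Irx4, Irx2 and Irx1 lie next to each other in the genome, which puts the switch of direction inside 1 cluster. Hey2, a transcriptional repressor of ventricular muscle, differed by 0.94. Other transcription factors past 2-fold were Prrx1 (1.64), of mesenchyme, and Sox2 (1.69), of stem cells and glia. Egr1, an immediate early gene, read 0.0879 in sham and 0.425, 0.266 and 0.447 in the 3 infarcts.

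Red cell genes were the list with the lowest median among those with 8 or more measured genes. Of 20 measured, 19 were below 0 and 5 were 2-fold lower, where 1.44% of all features were, and the median was -0.76, or -0.15 with spike scaling. Slc4a1, the anion exchanger of red cells, read 0.819 in sham, 0.295 in the PBS infarct, and 0.710 and 0.967 in the treated pair. Ahsp, the chaperone of alpha globin, read 1.02, 0.379, 0.823 and 0.723, and Alas2, the first enzyme of heme synthesis in red cells, 4.88, 2.41, 4.96 and 5.38. The PBS infarct was the lowest of the 4 arrays for each of them. Of the globins, Hbb-bs differed by -1.21 and Hba-a1 by -0.80. Klf1, the erythroid transcription factor, differed by -0.75. Summed over the list, relative signals were 1110 in sham, 593 in the PBS infarct, and 718 and 843 in the treated pair.

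Genes of mitosis were lower in the PBS infarct than on the other 3 arrays. Of 39 measured, 35 were below 0 and 5 were 2-fold lower (12.8%, where 1.44% of all features were). The median was -0.60, or 0.01 with spike scaling, where all features have 0.57. Ccna2, cyclin A, read 0.126 in sham, 0.0434 in the PBS infarct, and 0.122 and 0.134 in the treated pair. Cep55, which completes the cut between daughter cells, read 0.0863, 0.0296, 0.0774 and 0.0793. Ube2c, Ect2 and the spindle checkpoint kinase Ttk differed by -1.15, -1.14 and -1.02. Mki67, the proliferation marker, read 0.419, 0.305, 0.543 and 0.641 and differed by -0.46. DNA replication genes, which act earlier in the cell cycle, had a median of -0.11 over 37 and none was 2-fold apart. Promoters of mitotic genes often carry a cell cycle homology region, searched here as TTTGAA or TTCGAA on either strand within 250 bases before the RefSeq start (GRCr8), and CCAAT boxes. The first was found in 19 of 34 list promoters (55.9%) against 17.3% of 27457 promoters, and a CCAAT in 24 of 34 (70.6%) against 34.3%. The median difference was -0.69 for the 19 genes with the first motif and -0.46 for the 15 without. Among the 34, the promoters of the 3 lowest genes that hold it are printed to show where the motif sits. Both motifs are in capitals on either strand. No promoter was at hand for Ccna2 and Ube2c, so they were not searched. Cep55 lies at chr1:245245113-245245362 (+ strand), Ect2 at chr2:111966627-111966876 (- strand) and Spc25 at chr3:74396719-74396968 (- strand). A match is a description of letters and does not show binding.
Cep55: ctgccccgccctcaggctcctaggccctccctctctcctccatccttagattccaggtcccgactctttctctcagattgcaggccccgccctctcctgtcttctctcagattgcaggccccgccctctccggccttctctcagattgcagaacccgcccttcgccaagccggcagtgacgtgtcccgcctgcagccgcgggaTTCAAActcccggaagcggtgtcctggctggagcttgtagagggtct
Ect2: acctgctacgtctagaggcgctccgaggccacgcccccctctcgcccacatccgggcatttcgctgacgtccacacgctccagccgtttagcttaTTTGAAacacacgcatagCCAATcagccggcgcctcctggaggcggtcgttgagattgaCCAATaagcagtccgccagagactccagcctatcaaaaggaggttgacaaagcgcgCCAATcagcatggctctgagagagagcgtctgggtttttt
Spc25: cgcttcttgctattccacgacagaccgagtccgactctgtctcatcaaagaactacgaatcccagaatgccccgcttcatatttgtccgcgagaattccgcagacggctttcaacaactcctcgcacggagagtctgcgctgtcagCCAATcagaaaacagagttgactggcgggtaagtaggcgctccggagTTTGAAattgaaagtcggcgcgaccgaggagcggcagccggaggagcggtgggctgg

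Of 38 measured interferon response genes, 34 were below 0 and 3 were 2-fold lower (7.89%, where 1.44% of all features were). The median was -0.37, or 0.25 with spike scaling. The regulator Irf7 read 4.83 in sham, 2.88 in the PBS infarct, and 3.91 and 4.53 in the treated pair, closer to sham. Isg15, a ubiquitin-like protein, read 2.85, 1.53, 1.80 and 1.93, Mx1, an antiviral GTPase, 2.71, 1.60, 1.81 and 1.95, and Oas1i, a sensor of double-stranded RNA, 0.182, 0.0872, 0.103 and 0.116. For these 3 all infarcts were below sham. The interferon-stimulated response element, searched as GAAANNGAAA on either strand, was found in 19 of 30 promoters of the list (63.3%) and in 3.29% of all promoters, as known for such genes. The median difference was -0.36 for the 19 with it and -0.40 for the 11 without. Among the 30, the 3 lowest genes with a match are printed with it in capitals. No promoter was at hand for Isg15 and Usp18, so they were not searched. Oas1i lies at chr12:41284976-41285225 (+ strand), Oas1a at chr12:41330216-41330465 (+ strand) and Irf7 at chr1:205800024-205800273 (- strand). In Oas1i and Oas1a, near-identical relatives whose probes may share RNA, 2 overlapping matches form the capital stretch.
Oas1i: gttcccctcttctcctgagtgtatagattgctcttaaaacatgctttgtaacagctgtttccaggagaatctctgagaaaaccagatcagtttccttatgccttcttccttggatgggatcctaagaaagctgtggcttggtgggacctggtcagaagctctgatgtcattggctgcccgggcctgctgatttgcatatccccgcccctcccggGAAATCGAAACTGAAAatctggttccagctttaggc
Oas1a: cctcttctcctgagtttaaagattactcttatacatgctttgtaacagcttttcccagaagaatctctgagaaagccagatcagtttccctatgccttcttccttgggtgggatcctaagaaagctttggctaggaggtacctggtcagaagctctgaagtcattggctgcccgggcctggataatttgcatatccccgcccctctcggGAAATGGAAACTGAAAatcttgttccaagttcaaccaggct
Irf7: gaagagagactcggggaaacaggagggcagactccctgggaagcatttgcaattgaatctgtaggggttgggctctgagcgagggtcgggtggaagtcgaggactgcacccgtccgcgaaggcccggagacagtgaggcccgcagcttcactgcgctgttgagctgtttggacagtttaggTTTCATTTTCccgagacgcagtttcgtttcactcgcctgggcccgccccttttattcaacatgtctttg

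**Figure D4:**
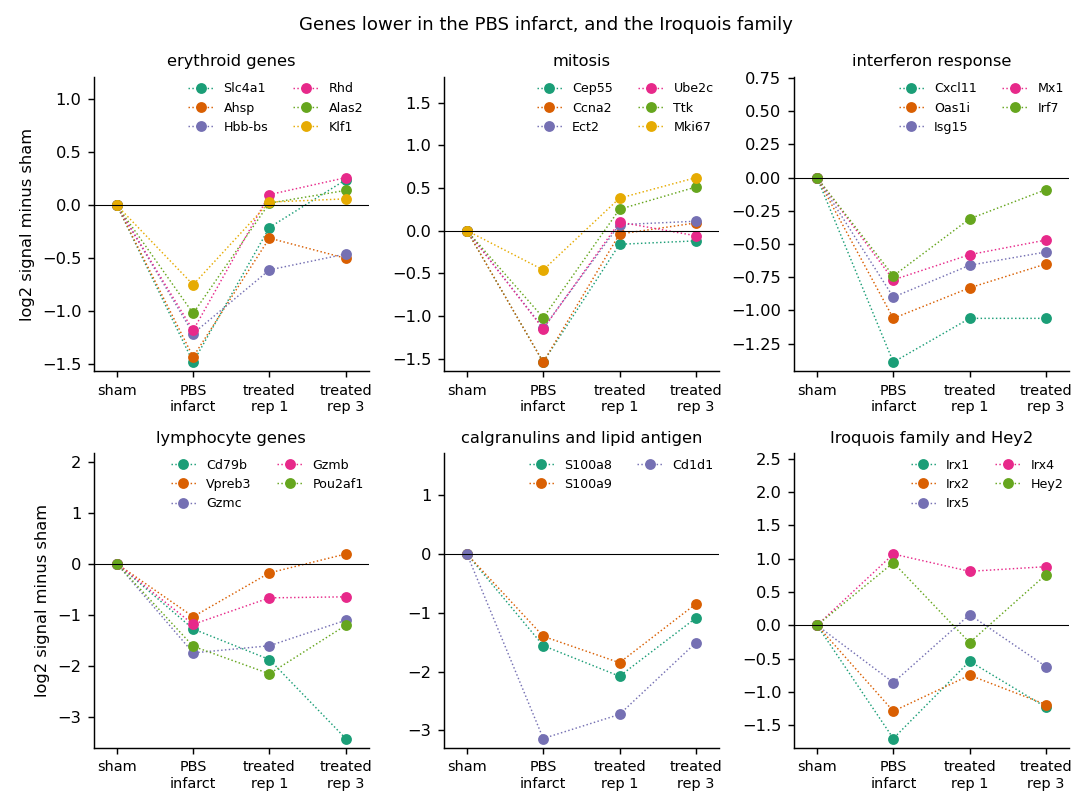
Log2 signal of each gene minus its signal in sham (vertical axis, a separate range in each panel) on the 4 myocardial arrays, 1 array per point, for genes lower in the PBS infarct and for the Iroquois family with Hey2. Erythroid and mitosis genes are lowest in the PBS infarct and nearer to sham in the treated pair, apart from Mki67, which lies above sham there. Interferon genes are below 0 in all 3 infarcts, and Irx4 and Irx1 lie on opposite sides of 0.

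Mitochondrial genes were shifted together by a small amount that depended on normalization. All 55 measured respiratory chain genes were below 0, with a median of -0.41 and none 2-fold lower, and the median was -0.12 with loess and 0.21 with spike scaling. These are among the brightest probes, where the difference of all features is also lowest. Mitochondrial ribosome genes, with 3 of 67 above 0, had -0.35, -0.22 with loess and 0.27 with spike scaling, and genes of glycolysis and the citrate cycle -0.32, -0.12 and 0.30. The lowest medians among 129 families of genes that share the letters of their symbol were those of Ndufa (-0.44) and Car (-0.43), the complex I subunits and carbonic anhydrases. The highest were those of symbols that start with P and a digit, which include collagen prolyl hydroxylases and purine receptors (0.30), and of Col, the collagens (0.22), and 81 families had no 2-fold gene. Circadian clock genes (median 0.07, 0 of 20 at 2-fold) and heat shock genes (0.10, 0 of 43) were level.

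Among the lowest genes outside these groups, Slco1a4, a transporter of organic anions and thyroid hormone, read 0.221 in sham, 0.0435 in the PBS infarct, and 0.0128 and 0.0383 in the treated pair. Pdzk1, a scaffold that holds such transporters in the membrane, read 0.284, 0.0800, 0.155 and 0.152. Abcb1a, a drug efflux pump of vessel walls, was measured in sham alone and was at least 4.57-fold lower, and Cdh5, the cadherin of endothelial junctions, differed by -1.24. The other blood endothelium genes did not follow, since the median of the 27 measured was -0.06 and Cldn5 was 0.86. C2h3orf33, an uncharacterised gene, read 0.494, 0.0684, 0.0477 and 0.0589 in the usual order, low in all 3 infarcts, and Cfap52, of cilia and sperm tails, 0.290, 0.0470, 0.246 and 0.117. The secreted phospholipase Pla2g2c differed by -2.26 and the lipoxygenase Alox15 by -1.24. Nrg1, a neuregulin that endothelium sends to heart muscle, and Nrg4 were measured in sham alone and were at least 7.93-fold and 5.74-fold lower, although treated replicate 1 read 0.0848 for Nrg1, above the 0.0691 of sham.

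Genes and probes with no group also lay far out. Myoc, the matrix protein myocilin, read 0.152 in sham, 1.17 in the PBS infarct, and 0.302 and 0.234 in the treated pair. Nnat, an imprinted membrane proteolipid, differed by 2.67, and Angptl4, an inhibitor of lipoprotein lipase, read 0.128, 0.550, 0.379 and 0.319. Lrrc73, a leucine-rich repeat protein, read 0.0305, 0.320, 0.0226 and 0.0126. Atp6v1g2, a proton pump subunit, differed by 2.80 with its brightest probe but by 0.28 with its other. Of the 16958 features measured on both arrays, 10586 were named genes, of which 227 were 2-fold higher and 125 lower. The rest, probes without a gene name, held 153 higher and 119 lower features. The probe A_64_P036970 read 0.0537 in sham, 1.01 in the PBS infarct, and 0.0721 and 0.147 in the treated pair, and A_64_P101425 read 0.0285, 0.467, 0.0235 and 0.0348. The largest difference in the other direction was that of A_64_P044832, at 1.65 in sham, 0.0393 in the PBS infarct, and 0.0285 and 0.0306 in the treated pair, followed by A_64_P030834, at 2.66, 0.134, 0.103 and 0.0996. Both of these were low in all 3 infarcts, so the distance lies between sham and every infarct. The high probe A_64_P101425 was near sham in the treated pair, whereas A_64_P036970 was above sham in both, by more than 2-fold in treated replicate 3.

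Second probes gave a further reading on the same arrays. Of 34 genes that were 2-fold apart by their brightest probe and had other probes measured on both arrays, 32 had all probes on the same side of 0 and 18 had all probes past 2-fold. Near the line on the higher side, the closest features inside were Qsox1 (1.00) and Chd5 (1.001) and those outside Eln (0.995) and Htr2b (0.995). Genes measured in the PBS infarct alone numbered 580, of which 218 had a bound of 2-fold or more, against 208 and 77 in sham alone, and the share of probes well above background was 67.1% in the PBS infarct and 64.4% in sham. Of 19 pairs of 2-fold genes with at most 2 genes between them, 9 were both higher, 7 both lower and 3 opposite. All neighbouring pairs of measured genes were not counted, so the 19 cannot show whether 2-fold genes lie together more often than others.

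Some of the calls above depended on how background was removed and how the arrays were scaled. With normexp background correction, the differences of Aldh1a2, Artn, Bmp2, Bmp7, Chad, Comp, Cybrd1, Dhh, Fbn2, Foxc2, Fst, Gap43, Gfra3, Kcnd2, Kcnn4, Meox1, Ngfr, Postn, Slc39a8, Sost, Sox2, Sox10, Steap2, Tgfb2 and Wnt2b were no longer 2-fold higher. Those of Alas2, Alox15, Ccna2, Cd79b, Cep55, Ect2, Gzmb, Hcn2, Oas1i, Pla2g2c, Pou2af1, Ttk, Ube2c and Vpreb3 were no longer 2-fold lower. The matricellular genes Ccn5, Ccn3, Ccn2, Ccn1 and Thbs4, the chemokines Ccl21, Ccl19, Cxcl13 and Cxcl14, the defence genes Reg3b, Reg3g and Gpr15lg, and Sfrp2, Sostdc1, Inhba, Cacna1g, Cacna1h, Irx1 and Cd1d1 kept their calls under that correction. Scaling on medians took Irx4, Fbn2, Sost and Steap2 under 2-fold, and loess took Hbb-bs, Alas2 and Ttk under it. Scaling on the spiked-in control RNAs ended the lower call of Ahsp, Alas2, Alox15, Ccna2, Cd79b, Cdh5, Cep55, Cxcl11, Ect2, Gzmb, Hbb-bs, Hcn2, Irx2, Oas1i, Pou2af1, S100a8, S100a9, Slc4a1, Ttk, Ube2c and Vpreb3.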

How the data were processed

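Total RNA was extracted with a column kit and labelled with an Agilent kit, per the labels. The authors deposited scanner output with intensity values for each array. It was made by version 11.0.1.1 of Agilent Feature Extraction, as the submitters' processing notes name it. A deposited table of log2 values comes with no account of its making in the sources used here. Over 18016 probes the columns of that table had equal medians (8.85) and r of 0.9998 or more with log2 scanner signal, and once sorted they differed by at most 0.000456.

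Control and outlier spots were left out, the spots of a probe were averaged, and log2 processed signal was taken minus each array's 75th percentile (a signal of 772 in sham, 1120 in the PBS infarct, and 1276 and 1058 in treated replicates 1 and 3). No spot was saturated. All 4 arrays lay on 1 slide. Of 30367 probes, 18355 received a symbol through their accession in a RefSeq table (GRCr8, used for names, gene order and promoters; the headers name an older build). Each gene was read from its brightest probe and unnamed probes were kept singly, for 26785 features with 15443 genes. A probe was measured where at least 0.5 of its spots were well above background. A gene measured on 1 array received a bound, its signal there against the higher of its own signal on the other array and that array's lowest signal among measured probes, which is not a detection limit.

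The comparison, the 72 gene lists and the rules were chosen with earlier results of these data known. Named genes are the 60 highest and 60 lowest, the 20 largest bounds each way, list members, and members of a described family; unnamed probes are 2 each way. A few genes in reach of these rules are not reported here. Computations used Python 3.11.15, pandas 2.3.3, statsmodels 0.14.6 (loess, fraction 0.3), R 4.3.3 and limma 3.58.1 (normexp, offset 50, on median signals). Alternatives covered background correction, normalization, scaling, the filter, the probe and the threshold. The number of arrays limits the precision.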

Additional observations from a re-analysis of the deposited data

How the results depend on the processing

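Against 624 features 2-fold apart (380 higher, 244 lower), the count was 237 (133 and 104) with normexp background correction, 2247 (1199 and 1048) without the filter on dim probes, 2235 (1091 and 1144) at 1.5-fold, 81 (64 and 17) at 4-fold, and 2124 (2084 and 40) with scaling on the spiked-in RNAs, which was added after the data were seen. Higher features were 60.9% of the total, but 56.1% with normexp, 56.5% with quantile normalization, 53.4% without the filter, and 47.9% with scaling on the median. The other alternatives left the total between 519 and 655. Scaling on the spiked-in RNAs turned the medians of 25 of the 27 lists below 0 to above 0. The 8 of these that had been at -0.25 or lower were ventricular (0.15), T and NK (0.34), B and plasma (0.26), mitosis (0.01), interferon (0.25), respiratory chain (0.21), glycolysis and citrate cycle (0.30) and mitochondrial ribosome (0.27). The osteogenic median, 0.27, was -0.10 with normexp and -0.17 without the filter, and the acute-phase median was -0.04 with normexp. Of 199 named genes recomputed, 74 kept 2-fold and direction under every alternative that gave a value. Normexp took 99 under 2-fold and reversed Serpina1 (-0.09) and Sost (-0.03), and spike scaling took 65 under 2-fold; each other alternative took at most 10. The cause of these changes was not tested. No paired analysis was possible because sham and PBS infarct have 1 array each.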

Other observations

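Of 22 measured fast skeletal and embryonic muscle genes, 3 were 2-fold higher in the PBS infarct (13.6%, where 2.24% of all features were). None was lower, and the median was 0.06. Myl1, a light chain of fast and embryonic muscle, read 0.0713 in sham, 0.222 in the PBS infarct, and 0.123 and 0.0703 in the treated pair, Tnni1, the slow troponin I, differed by 1.30, and Atp2a1, the calcium pump of fast muscle, by 1.03. Myh3, the embryonic heavy chain, was measured in the PBS infarct alone and was at least 4.62-fold higher. Ckm (-0.48) and Eno3 (-0.73), enzymes of adult muscle, were below 0, as were Myh8 (-0.28), the perinatal heavy chain, and the myogenic factors Myog (-0.48) and Myf5 (-0.69), and Pax7, of muscle stem cells, was measured in sham alone. In all, 12 of the 22 were above 0. The ankyrin repeat gene Ankrd23, which answers to stretch, differed by 1.26, while Fhl2, a LIM protein of heart muscle, lay at -0.96.

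Of 12 measured genes of the renin-angiotensin system, 2 were 2-fold higher (16.7%, where 2.24% of all features were), none was lower, and the median was 0.29. Cma1, mast cell chymase, read 0.133 in sham and 0.304, 0.367 and 0.343 in the 3 infarcts, so all of them were above sham, and Agt, angiotensinogen, differed by 1.01. Avp, the hormone vasopressin, read 0.551 in sham and 0.197, 0.140 and 0.157 in the infarcts. Of 26 measured glucocorticoid-responsive genes, 24 were under 2-fold and the median was 0.06, with Angptl4 at 2.10 and Zbtb16 at -1.34.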
